A study of Mus musculus with 12 samples.

Results

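The transcription factors that build the early gonad were followed in fetal mouse testes after inducible deletion of the nuclear receptor gene Nr2f2. The members were taken by symbol as 9 genes, Wt1, Nr5a1, Gata4, Gata6, Zfpm2, Lhx9, Emx2, Six4 and Cbx2, of the 24470 genes in the table, and all 9 passed the filter on low counts that left 15572 genes. Whole testes of E14.5 embryos were pooled by 3, with 6 control pools (Nr2f2 f/f) and 6 cKO pools (Wt1 CreER; Nr2f2 f/f), and each pool gave 1 library. All groups carried the floxed Nr2f2 allele, which holds a LacZ cassette behind its second loxP site, and the pregnant females received tamoxifen on E11.5 and E12.5. The Cre recombinase was expressed from the Wt1 gene itself, in cKO embryos only, so that the effect of this allele and that of Nr2f2 loss cannot be told apart. This matters most for Wt1. An inducible Cre can leave cells unrecombined, and all cKO pools still held Nr2f2 RNA.

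The gonad arises from the epithelium that lines the body cavity, which thickens beside the mesonephros before it becomes a testis or an ovary. Wt1, Lhx9, Emx2 and Six4 act there upstream of Nr5a1, the nuclear receptor that later drives steroidogenic genes in Leydig cells and Amh in Sertoli cells. Gata4 and its cofactor Zfpm2, also named Fog2, act with Wt1 on the sex-determining gene Sry, and the Polycomb protein Cbx2 is needed for testis formation as well. In the fetal testis Wt1 is strong in Sertoli cells and also made in interstitial progenitors, Nr5a1 marks Sertoli and Leydig cells, and Gata4 is made in most somatic cells.

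Total counts ran from 7044531 to 39965574 read pairs among control libraries and reached 7322959 to 59404778 among cKO libraries. The fewest read pairs on any member in any library were 268, on Emx2. Expression is given as CPM, read pairs scaled to library size with TMM factors. The targeted gene Nr2f2 had 162.5 to 186 CPM in control and 50.2 to 119 CPM in cKO libraries, a log2 fold change of -1.21 (standard error, SE, 0.16, adjusted p = 0.000548 by edgeR). Markers of Sertoli and Leydig cells were present in all pools, with a summed level of 1135 to 1788 CPM for 12 Sertoli genes and of 1302 to 3588 CPM for 11 Leydig genes. Xist, the RNA of the inactive X chromosome, was at 5.15 to 7.68 CPM in 8 libraries and at 304 to 891 CPM in control 1, cKO 3, cKO 5 and cKO 6. These 4 libraries also had more RNA of 7 ovarian marker genes, none at 0 in all libraries, with a summed level of 322 CPM in control 1 and 149 to 218 CPM in the 3 cKO libraries. In the other 8 libraries this sum was 87.1 to 98.3 CPM in controls and 74.2 to 80.3 CPM in cKO. The part of these libraries in each result was examined by leaving them out, which left 5 control and 3 cKO libraries, and by a fit with the Xist class as a covariate.

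Levels can be compared between genes only per length, so CPM were divided by the summed length of all annotated exons in kb. In control testes Gata4 was the most abundant factor at 86.2 ± 11.2 CPM per kb (SD, n = 6 pools). It was followed by Nr5a1 at 66.0 ± 7.50 and Wt1 at 31.3 ± 7.09 CPM per kb. A group of 4 factors lay lower, with Cbx2 at 16.5 ± 1.98, Emx2 at 14.96 ± 4.97, Lhx9 at 13.6 ± 0.69 and Gata6 at 9.43 ± 2.07 CPM per kb. Zfpm2 at 6.83 ± 0.51 and Six4 at 3.64 ± 0.56 CPM per kb were the lowest. The ranges of Gata4 and Nr5a1 overlapped among control pools, as did those of neighbours in the group of 4, whereas all other neighbours in this order were separated. In cKO testes Gata4 (84.0 to 96.9 CPM per kb) and Nr5a1 (45.6 to 59.7 CPM per kb) no longer overlapped. The order of the 4 middle factors rested on the gene model. With the longest transcript in place of all exons it became Lhx9, Cbx2, Gata6 and Emx2, with the 3 factors above and the 2 below unmoved.

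**Figure D1:**
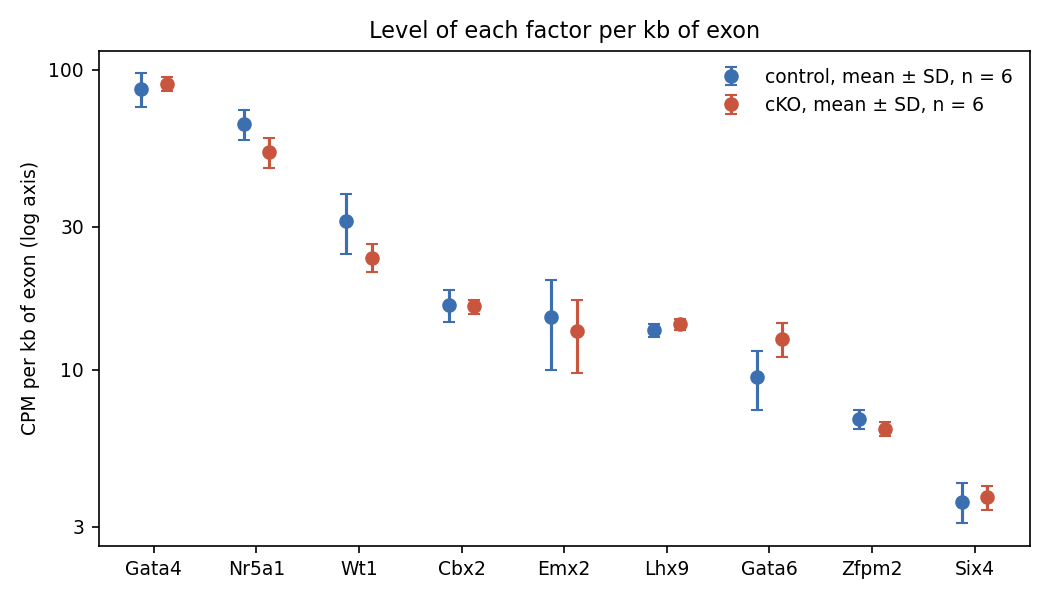
CPM per kb of exon on a log axis for each of the 9 factors, ordered by the control mean, with points for the mean and bars for the SD of 6 pools per group. Gata4, Nr5a1 and Wt1 lie above the rest in both groups, and Six4 at 3.64 CPM per kb in controls is the lowest.

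The question for each factor was whether its RNA differed between cKO and control testes. Of the 9 factors, none passed an adjusted p of 0.05 in edgeR's quasi-likelihood test on all 12 libraries, where 8.13% of all genes did. The log2 fold change was negative for 5 and positive for 4, with a median of -0.02 beside 0.00 over all genes tested. None of the 9 had groups that did not overlap, against 5.52% of all genes. Wt1, Nr5a1 and Gata6 had the smallest adjusted p-values (0.0604, 0.0517 and 0.0548) and were the 3 factors with an unadjusted p under 0.05, which 25.2% of all genes had. DESeq2, the tool of the study, called the same 3 factors in the same direction (Wt1 adjusted p = 0.021, Nr5a1 0.0164 and Gata6 0.0174 from DESeq2), beside 11.6% of the genes it gave an adjusted p. Limma-voom called Gata6 alone (adjusted p = 0.0485 from limma-voom), beside 8.01% of all genes.

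Without the 4 libraries with high Xist, edgeR called 3 factors, Wt1, Gata6 and Emx2, where 7.08% of all genes were called. The same 3 were called with the Xist class as a covariate, where 7.61% of all genes were called. In that fit control 1 was the only control of the high-Xist class. The groups of Wt1, Gata6 and Emx2 did not overlap among the 8 libraries with low Xist, which held for 28.3% of all genes with so few libraries. The calls for the factors thus differed between fits, and each factor is given below with the values of both sets of libraries.

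**Figure D2:**
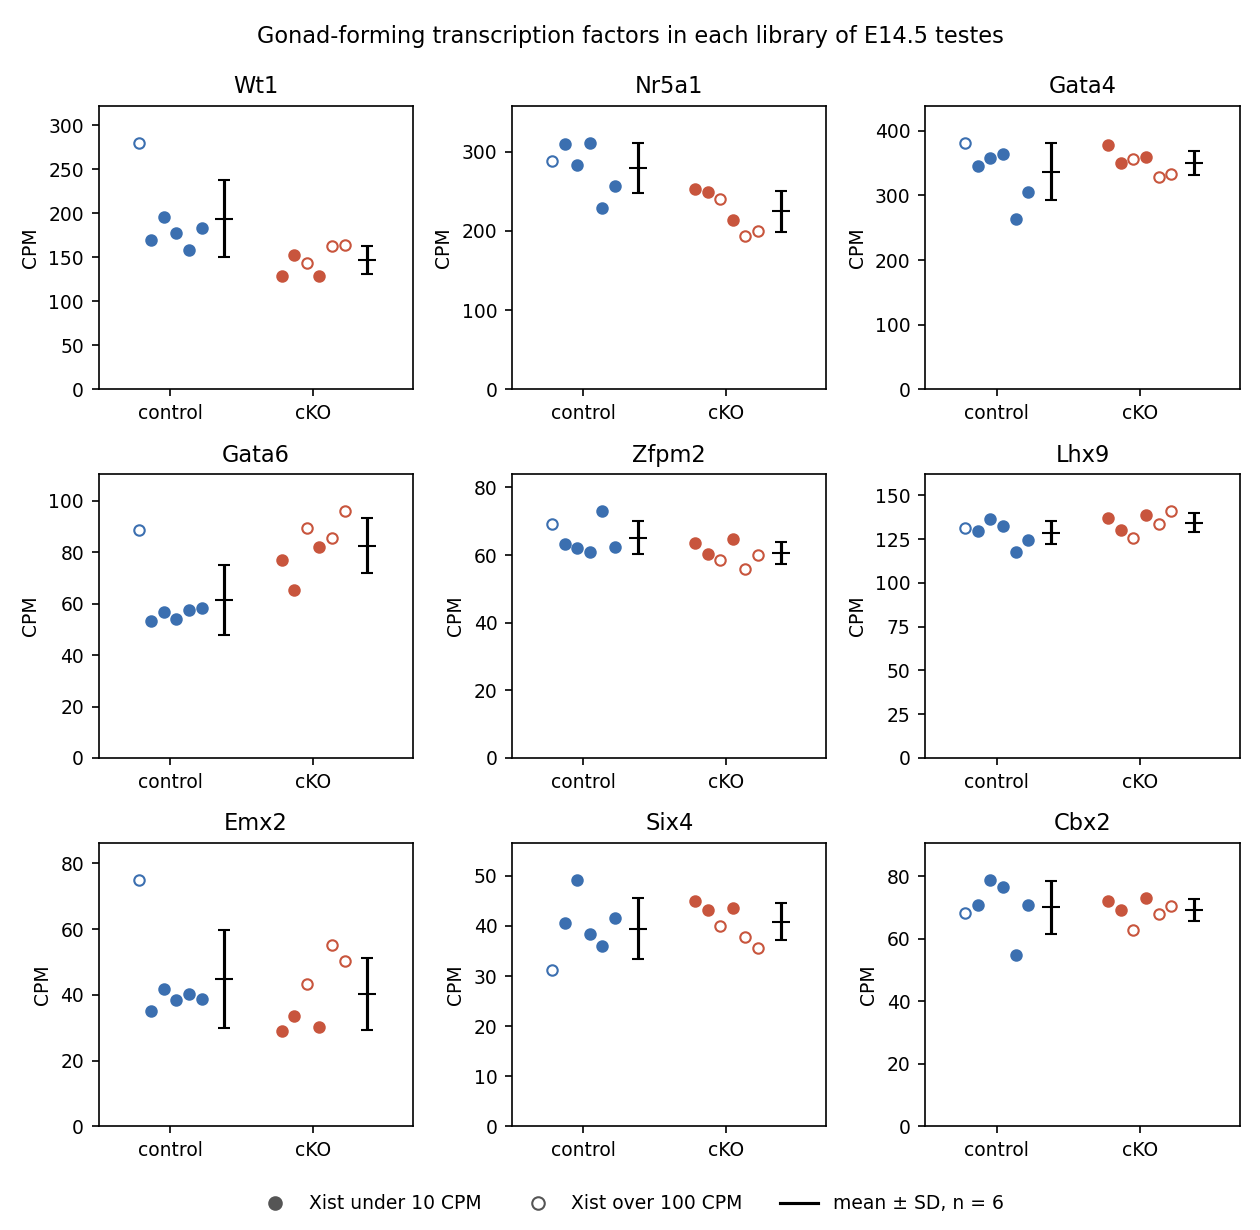
CPM of each factor in the 6 control and 6 cKO libraries, with each axis starting at 0, open points for the 4 libraries with Xist over 100 CPM, and bars for the mean ± SD. The open control point lies far above the other 5 controls for Wt1 (280 CPM), Gata6 (88.6 CPM) and Emx2 (75.0 CPM).

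Wt1 (Entrez Gene 22431, chromosome 2 of mm10 from 105126529 to 105173614, plus strand) encodes a zinc finger factor that the gonad and kidney need to form. Its level in controls 1 to 6 was 280, 170, 195, 177, 158 and 183.5 CPM, and in cKO 1 to 6 it was 128, 152, 143, 129, 162 and 164 CPM. Control 1 stood apart from the other 5 controls, 4 of the 6 cKO pools lay under every control, and the groups overlapped through control 5 and cKO 5 and 6. Wt1 thus averaged 194 ± 43.9 CPM over the controls and 147 ± 15.7 CPM over the cKO pools (SD, n = 6), a log2 fold change of -0.41 (SE 0.12, adjusted p = 0.0604 by edgeR). The 95% interval of the cKO level ran from 62.7% to 90.8% of control. In the 8 libraries with low Xist the ranges were 158 to 195 CPM in control and 128 to 152 CPM in cKO, which did not overlap, with a log2 fold change of -0.37 (SE 0.09, adjusted p = 0.0355 by edgeR). The covariate gave -0.51 (SE 0.09, adjusted p = 0.00332 by edgeR). In this fit control 1 was the only high-Xist control, at 280 CPM against 143 to 164 CPM in the high-Xist cKO pools. In bulk RNA, fewer Wt1-expressing cells and less Wt1 RNA per cell cannot be told apart, and the counts do not say from which Wt1 allele the reads came.

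Wt1os, a non-coding RNA transcribed away from Wt1 on the opposite strand (Entrez Gene 329480, chromosome 2 from 105076538 to 105126510, minus strand), was higher in cKO pools. Only 18 bases lie between both start sites in the gene models. This gap is shown because it parts transcripts whose log2 fold changes had opposite signs. The bases come from RefSeq (GRCm38.p6, chr2:105126461-105126528, minus strand, read 5′ to 3′ along Wt1os), with the gap in capitals and the first bases of Wt1os in lower case.

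Wt1os start: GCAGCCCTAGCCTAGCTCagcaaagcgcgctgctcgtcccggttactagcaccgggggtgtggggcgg

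The stretch had a GC content of 69.1% with 6 CpG dinucleotides. The GC box GGGCGG, read on both strands, occurred once in this stretch, at its end, and 2 times in the whole Wt1os promoter window of 300 bases. It was present in 35.7% of all 32851 such windows in the table. Neither TATAAA (13.6% of windows) nor AGATAA (11.2%) was found in the Wt1os window on either strand. Wt1os was at 19.3, 13.3, 13.8, 12.8, 13.7 and 13.6 CPM in controls 1 to 6 and at 16.9, 16.1, 21.5, 17.9, 30.0 and 25.8 CPM in cKO 1 to 6. All cKO pools lay above the controls other than control 1. Its log2 fold change was 0.55 (SE 0.16, adjusted p = 0.0451 by edgeR), a call that held in 3 of the 12 fits with 1 library removed, with adjusted p-values of up to 0.103. In the 8 libraries with low Xist it was 0.35 (SE 0.08, adjusted p = 0.0348 by edgeR).

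The ratio of Wt1 to Wt1os read pairs within a library needs no scaling between libraries and separated the groups. It was 14.49, 12.8, 14.2, 13.8, 11.6 and 13.5 in controls 1 to 6 and 7.58, 9.49, 6.67, 7.20, 5.41 and 6.35 in cKO 1 to 6. Control 1, which was high in both transcripts, had the highest ratio, close to the 14.2 of control 3. The mean log2 ratio differed by -0.93 between cKO and control libraries, and by -0.71 among the 8 with low Xist. The ratios to opposite-strand partners were examined after the separate values were known and are given without a test.

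On the other side of Wt1, 50727 bases beyond its end, lies Them7, a gene of the thioesterase superfamily (Entrez Gene 74088, chromosome 2 from 105224342 to 105379860, plus strand). It was barely detected in control pools at 0.094 to 0.54 CPM and was at 0.73 to 1.42 CPM in cKO pools, without overlap. The log2 fold change was 2.06 (SE 0.32, adjusted p = 0.00133 by edgeR) in all libraries and 1.73 (adjusted p = 0.0194 by edgeR) in the 8 with low Xist. Within 1 Mb on each side of Wt1, 17 other genes were tested, of which 3 were higher and 2 lower in cKO testes, beside 3.28% higher and 4.85% lower among all genes. The higher genes were Wt1os, Them7 and Prrg4 (log2 fold change 0.84, adjusted p = 0.0175 by edgeR), and the lower ones were Rcn1 (-0.31, adjusted p = 0.035 by edgeR) and D430041D05Rik (-0.78, adjusted p = 0.0438 by edgeR). This window and these genes were chosen after values near Wt1 had been seen, and the linked Cre allele and Nr2f2 loss cannot be told apart for any of them.

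Emx2 (Entrez Gene 13797, chromosome 19 from 59458690 to 59465357, plus strand) encodes a homeobox factor of the early urogenital epithelium. Its level was 75.0, 35.3, 41.8, 38.4, 40.2 and 38.7 CPM in controls 1 to 6 and 29.1, 33.7, 43.3, 30.1, 55.2 and 50.4 CPM in cKO 1 to 6. The 4 libraries with high Xist were the 4 highest for Emx2, whatever their genotype. In all libraries the log2 fold change was -0.17 (SE 0.20, adjusted p = 0.624 by edgeR), and leaving out control 1 alone turned its sign to 0.04. In the 8 libraries with low Xist Emx2 fell from a range of 35.3 to 41.8 CPM to one of 29.1 to 33.7 CPM, with a log2 fold change of -0.33 (SE 0.09, adjusted p = 0.0454 by edgeR). With the covariate the change was -0.41 (adjusted p = 0.00724 by edgeR), in a fit where control 1 was the only high-Xist control.

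Emx2os, the opposite-strand RNA of this locus (Entrez Gene 329078, chromosome 19 from 59425104 to 59458635, minus strand), starts 54 bases before Emx2. The 250 bases before Emx2 are shown because both transcripts leave from them (RefSeq, GRCm38.p6, chr19:59458440-59458689, plus strand, with the bases between both starts in capitals and the first bases of Emx2os, on the other strand, in lower case).

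Emx2 upstream: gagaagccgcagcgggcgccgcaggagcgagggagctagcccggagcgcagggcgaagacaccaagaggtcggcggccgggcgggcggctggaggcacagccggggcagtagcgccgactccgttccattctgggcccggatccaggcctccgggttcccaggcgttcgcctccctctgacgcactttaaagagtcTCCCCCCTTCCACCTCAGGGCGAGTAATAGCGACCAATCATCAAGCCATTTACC

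This stretch had a GC content of 67.2%, 24 CpG dinucleotides and 2 GC boxes. The Emx2 pair had log2 fold changes of the same sign. In the 8 libraries with low Xist Emx2os fell as well, from 12.7 to 17.4 CPM in control to 8.19 to 10.2 CPM in cKO pools (log2 fold change -0.70, SE 0.13, adjusted p = 0.0112 by edgeR). In all libraries it was at -0.30 (SE 0.25, adjusted p = 0.46 by edgeR), with 26.7 CPM in control 1, and at -0.12 without that library. The ratio of Emx2 to Emx2os was 2.30 to 3.02 in control and 2.66 to 3.55 in cKO libraries (log2 difference 0.18). Among the 8 libraries it was 3.31 to 3.55 in cKO, above the controls (log2 difference 0.36).

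Gata6 (Entrez Gene 14465, chromosome 18 from 11052510 to 11085635, plus strand) and Gata4 (Entrez Gene 14463, chromosome 14 from 63198914 to 63245271, minus strand) encode zinc finger factors that bind the same core motif and share gonadal somatic cells. Gata6 was at 88.6, 53.3, 56.6, 54.2, 57.4 and 58.3 CPM in controls 1 to 6 and at 77.1, 65.4, 89.3, 82.0, 85.5 and 95.9 CPM in cKO 1 to 6. All cKO pools lay above controls 2 to 6, and control 1 lay among the cKO pools. Gata6 thus averaged 61.4 ± 13.5 CPM over the controls and 82.5 ± 10.5 CPM over the cKO pools (SD, n = 6), a log2 fold change of 0.43 (SE 0.13, adjusted p = 0.0548 by edgeR). Its 95% interval ran from 111% to 162% of control. In the 8 libraries with low Xist it rose by 0.43 as well (SE 0.08, adjusted p = 0.0125 by edgeR), from 53.3 to 58.3 CPM in control to 65.4 to 82.0 CPM in cKO pools. The covariate gave a log2 fold change of 0.31 (SE 0.08, adjusted p = 0.0358 by edgeR). In the cKO group the 3 libraries with high Xist had 85.5 to 95.9 CPM, above the other 3.

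Gata6os, whose gene model overlaps the start of Gata6 by 58 bases on the opposite strand, was called higher in all fits run. It was at 3.20 to 6.87 CPM in control and 5.95 to 9.64 CPM in cKO pools, and only control 1 reached the cKO range. The log2 fold change was 0.91 (SE 0.20, adjusted p = 0.012 by edgeR) in all libraries and 0.94 (SE 0.15, adjusted p = 0.00412 by edgeR) in the 8 with low Xist. The read pairs of Gata6 per Gata6os read pair were 12.9 to 16.9 in control and 9.94 to 12.5 in cKO libraries, without overlap (log2 difference -0.52). Counting was by strand, so reads of both transcripts are kept apart.

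**Figure D3:**
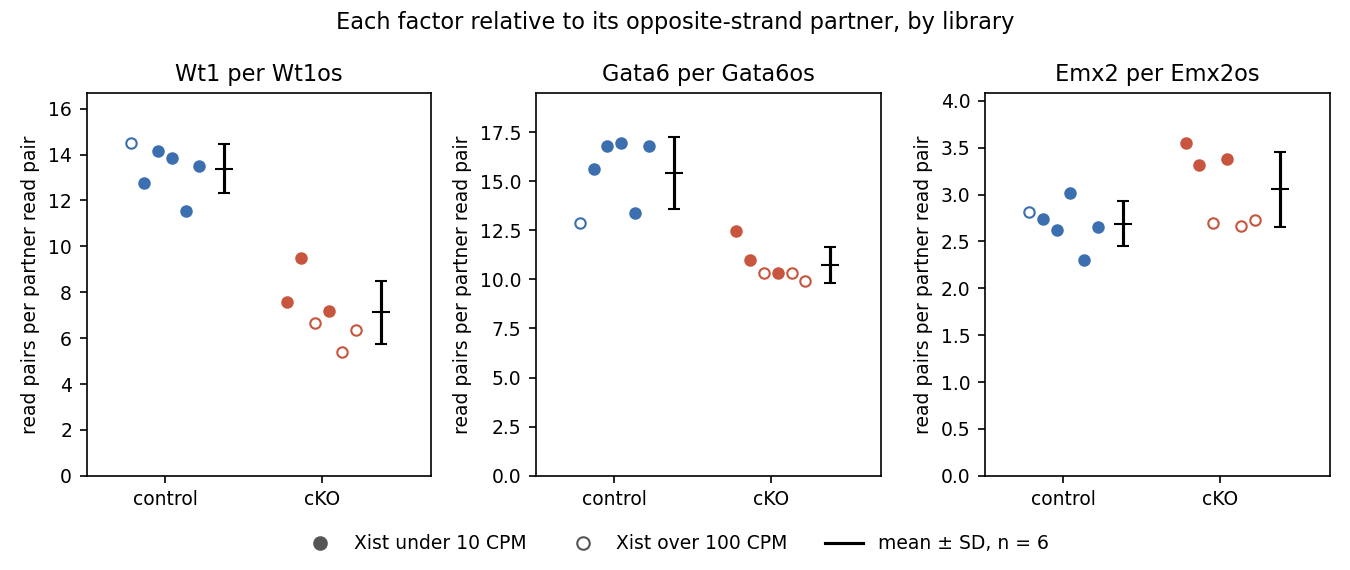
Read pairs of Wt1, Gata6 and Emx2 per read pair of their opposite-strand partner in each library, with axes starting at 0, open points for Xist over 100 CPM and bars for the mean ± SD of 6 libraries. For Wt1 all cKO libraries lie at 9.49 or less and all controls at 11.6 or more.

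Gata4 was called in none of the 3 edgeR fits. It ran from 264 over a median of 352 to 381 CPM in control and from 328 over 353 to 378 CPM in cKO pools, so that the cKO pools lay within the control range. The log2 fold change was 0.06 (SE 0.08, adjusted p = 0.689 by edgeR) in all libraries, with a 95% interval from 91.9% to 118% of control, and 0.15 (adjusted p = 0.362 by edgeR) in the 8 with low Xist. Its sign turned to -0.0066 without control 5, the lowest control. Control testes had 0.149 to 0.232 Gata6 read pairs per Gata4 read pair and cKO testes 0.187 to 0.288, which overlapped.

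Zfpm2 (Entrez Gene 22762, chromosome 15 from 40655042 to 41104592, plus strand), the cofactor that binds GATA proteins, ran from 60.8 over a median of 62.8 to 72.9 CPM in control and from 55.9 over 60.2 to 64.7 CPM in cKO pools. Its log2 fold change was -0.10 (SE 0.06, adjusted p = 0.319 by edgeR), and -0.03 (adjusted p = 0.852 by edgeR) in the 8 libraries with low Xist. The 3 cKO pools with high Xist were its 3 lowest cKO pools. Zfpm1, its paralog, was at 23.2 ± 6.56 and 26.9 ± 1.59 CPM (log2 fold change 0.21, adjusted p = 0.426 by edgeR).

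Nr5a1 (Entrez Gene 26423, chromosome 2 from 38692656 to 38714542, minus strand) was at 288, 310, 283, 311, 229 and 257 CPM in controls 1 to 6 and at 253, 249, 240, 214, 193.5 and 199.5 CPM in cKO 1 to 6. Of the cKO pools, 3 lay under every control, and only control 5 lay within the cKO range. Nr5a1 averaged 280 ± 31.8 CPM over the controls and 225 ± 25.9 CPM over the cKO pools (SD, n = 6). The log2 fold change was -0.31 (SE 0.09, adjusted p = 0.0517 by edgeR), with a 95% interval from 70.1% to 92.3% of control. Unlike Wt1, Gata6 and Emx2, Nr5a1 had 288 CPM in control 1, within the range of the other controls. In the 8 libraries with low Xist the change was -0.22 (SE 0.11, adjusted p = 0.222 by edgeR) and the ranges of 229 to 311 and 214 to 253 CPM overlapped. With the covariate it was -0.29 (adjusted p = 0.093 by edgeR), so neither of these fits called it.

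The ratio of Nr5a1 to Gata4 read pairs was 0.755 to 0.896 in control and 0.590 to 0.713 in cKO libraries, without overlap. This ratio was chosen after the values had been seen and is given without a test. The low values of control 5 for Nr5a1 and Gata4 were thus shared by both genes. The ratio of Wt1 to Nr5a1 overlapped, at 0.548 to 0.972 in control and 0.507 to 0.839 in cKO libraries.

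Lists of Leydig and Sertoli cell genes are given by their counts. Whether their values follow from Nr5a1 was not tested. Of 11 genes of steroid synthesis and Leydig function, 6 were lower and none higher in cKO testes, beside 4.85% lower and 3.28% higher among all genes, and their median log2 fold change was -0.61. The lower genes were Cyp11a1 (-0.91) and Cyp17a1 (-1.15), both enzymes of androgen synthesis, Fdx1 (-0.67), which passes electrons to Cyp11a1, Hsd3b1 (-0.61), the luteinizing hormone receptor Lhcgr (-0.81) and the hormone Insl3 (-2.35). Their adjusted p-values in the edgeR test were 0.0017 to 0.0365, and Hsd3b1 missed the threshold with the Xist covariate (adjusted p = 0.0735 by edgeR). The summed level of the 11 genes was 2195 CPM in control 1 and 2775 to 3588 CPM in the other controls, against 1302 to 2169 CPM in the high-Xist cKO pools and 1946 to 2437 CPM in the other cKO pools. Of 8 interstitial cell markers, which include the targeted Nr2f2, 3 were lower and none higher, with a median of -0.45, and of -0.24 in the 8 libraries with low Xist. Their sum ran from 2822 to 3575 CPM in control, from 1477.5 to 2677 CPM in the high-Xist cKO pools and from 2159 to 3067 CPM in the other cKO pools. The part of these markers in the Leydig values was not tested. Star, Scarb1, Fdxr and Por were not called, with log2 fold changes of -0.19 to 0.23. Of 12 Sertoli genes, only the inhibin subunit Inhbb passed, at 120 ± 25.01 and 164 ± 14.0 CPM (log2 fold change 0.44, adjusted p = 0.0481 by edgeR, 0.0753 in the 8 libraries with low Xist and 0.0475 with the covariate). The Sertoli hormone gene Amh, a target of Nr5a1, Wt1 and Gata4, was at 496 ± 121 and 486 ± 120 CPM (log2 fold change -0.03, adjusted p = 0.941 by edgeR, and 0.25, adjusted p = 0.414, in the 8 libraries with low Xist). In those 8 libraries the 12 Sertoli genes summed to 1135 to 1645 CPM in control and 1657 to 1788 CPM in cKO pools, against 1580 CPM in control 1 and 1377 to 1524 CPM in the high-Xist cKO pools. The sums in the 8 libraries did not overlap, as held for 28.3% of all single genes there, and none of the 12 genes was called in them.

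Lhx9 (Entrez Gene 16876, chromosome 1 from 138825186 to 138847579, minus strand), a LIM homeobox factor, ran from 118 over a median of 130 to 137 CPM in control and from 126 over 135 to 141 CPM in cKO pools. Its log2 fold change was 0.06 (SE 0.06, adjusted p = 0.5 by edgeR), with a 95% interval from 96.1% to 113% of control, and 0.08 (adjusted p = 0.465 by edgeR) in the 8 libraries with low Xist. The coefficient of variation among control pools was 5.12% for Lhx9, and 3.90% of all genes tested had a lower one. It was 33.2% for Emx2, 22.6% for Wt1 and 21.9% for Gata6, against a median of 16.0% over all genes. Without control 1 these 3 fell to 6.28%, 7.89% and 3.79%, against 5.65% for Lhx9 and a median of 14.1%, so this library held most of their spread.

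Six4 (Entrez Gene 20474, chromosome 12 from 73100259 to 73113245, minus strand), a homeobox factor that acts upstream of Zfpm2 and Nr5a1, ran from 31.2 over a median of 39.4 to 49.2 CPM in control and from 35.5 over 41.6 to 45.0 CPM in cKO pools. Its log2 fold change was 0.05 (SE 0.10, adjusted p = 0.783 by edgeR), 0.10 (adjusted p = 0.531 by edgeR) in the 8 libraries with low Xist, and -0.01 without control 1. Six4 was lowest in control 1 and, among cKO pools, in the 3 with high Xist (35.5 to 40.0 CPM against 43.2 to 45.0 CPM).

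Cbx2 (Entrez Gene 12416, chromosome 11 from 119023021 to 119031275, plus strand), the Polycomb member, ran from 54.9 over a median of 70.7 to 78.9 CPM in control and from 62.7 over 70.0 to 72.9 CPM in cKO pools. The log2 fold change was -0.02 (SE 0.08, adjusted p = 0.91 by edgeR), with a 95% interval from 87.6% to 111% of control, and 0.02 (adjusted p = 0.905 by edgeR) in the 8 libraries with low Xist. Its sign changed between fits and carries no direction. Of 22 other Polycomb genes, 2 were higher and none lower, near the 8.13% called among all genes. They were Phc1 (log2 fold change 0.31, adjusted p = 0.0466 by edgeR) and Kdm2b (0.39, adjusted p = 0.0324 by edgeR), of which neither passed without the high-Xist libraries. Pcgf5, named after its values were seen, was called higher there (0.43, adjusted p = 0.0437 by edgeR) and with the covariate (adjusted p = 0.0205 by edgeR), while in all 12 libraries (0.60) it passed with DESeq2 (adjusted p = 0.0161) but not with edgeR (adjusted p = 0.0619). The core subunits Ezh2, Suz12 and Rnf2 were not called, with log2 fold changes of -0.03, 0.09 and 0.08. Pcgf3 was at 0.08.

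**Figure D4:**
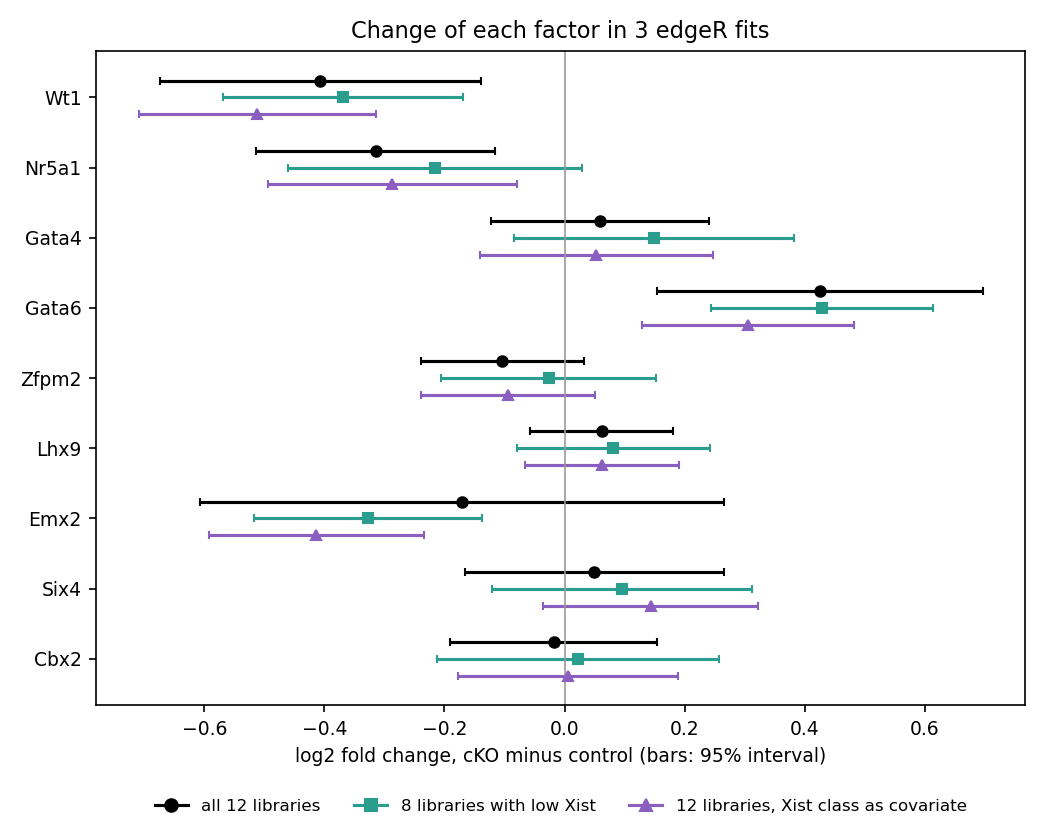
Log2 fold change of each factor, cKO minus control, with its 95% interval in 3 edgeR fits, on all 12 libraries, on the 8 with low Xist, and on all 12 with the Xist class as a covariate. The interval of Wt1 and that of Gata6 stay clear of 0 in the 3 fits, that of Nr5a1 crosses 0 in the 8 libraries, and that of Emx2 is clear of 0 only in the last 2.

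The factors also differed in how they varied between pools of 1 genotype. After each group mean was removed, the log2 CPM of Wt1 and Emx2 had a Pearson correlation of 0.88 over the 12 libraries, Gata6 and Emx2 0.83, and Wt1 and Gata6 0.74. Six4 ran against Emx2 (-0.74) and Gata6 (-0.71). Among other pairs, Lhx9 and Cbx2 were at 0.86, Nr5a1 and Gata4 at 0.80 and Gata4 and Cbx2 at 0.71. Of the same genes, Gata4 and Lhx9 were at 0.64, Nr5a1 and Cbx2 at 0.48 and Nr5a1 and Lhx9 at 0.24. Wt1 and Nr5a1 were at -0.02. These values are descriptions over libraries that share 4 with high Xist, and control 1 weighs on the pairs of Wt1, Emx2 and Gata6. Control 5 was the lowest control for Nr5a1, Gata4, Lhx9 and Cbx2.

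The 3 genes most like each factor were taken by the same correlation from 14261 others with at least 1 CPM. They are the highest of many values. They were Prr36 (0.97), Carmil3 and Prkd1 (both 0.94) for Wt1, and the prostaglandin receptor gene Ptger3 (0.99), Lypd6 and Ccdc62 (both 0.98) for Emx2. For Gata6 they were the keratin gene Krt8 (0.97), Tmem132c and Csgalnact1 (both 0.95). Nr5a1 was most like Mapt (0.98), Sdha (0.97) and Dock8 (0.96), and Gata4 like Kat2a, Bcr and Ctbp1 (all 0.98). The values were lower for Zfpm2 (Fn3krp 0.91, Qprt 0.87 and Ifi207 0.87) and Lhx9 (Mogs 0.90, Fam207a 0.89 and Brsk2 0.87). Six4 was most like the cell division genes Cdca2 (0.93) and Cdca7 (0.92) and Enho (0.90), and Cbx2 like Tbcc (0.95), Foxo6 (0.94) and Sox2 (0.94). With the group means kept, Cbx2 alone had the same first gene, and Gata6os joined the 3 most like Gata6 (0.96).

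Other genes of early gonad formation were counted as a list. Of 15 tested, 3 were lower and 1 was higher in the cKO pools, beside 4.85% and 3.28% of all genes, and their median log2 fold change was 0.02. The lower genes were Tcf21 (153 ± 14.97 and 74.8 ± 17.5 CPM, log2 fold change -1.03, adjusted p = 0.000383 by edgeR), a factor of interstitial progenitors, Osr1 (-0.81, adjusted p = 0.0043 by edgeR), a zinc finger factor of the intermediate mesoderm, and the insulin receptor relative Insrr (-1.79, adjusted p = 0.0043 by edgeR). Bmp4 was higher (0.36, adjusted p = 0.0286 by edgeR). The 4 genes kept their calls in the 8 libraries with low Xist, with the covariate and with DESeq2. Kdm3a, Igf1r and Map3k4 were not called, with log2 fold changes of -0.10, 0.09 and 0.15. Sry, which was listed at 0 to 0.047 CPM, did not pass the filter.

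Genes of the surface epithelium from which the gonad forms were counted as well, since Wt1, Lhx9 and Emx2 are known there. Of 10 tested, 2 were higher and none lower, beside 3.28% and 4.85% of all genes. They were Gpm6a (log2 fold change 0.63, adjusted p = 0.0469 by edgeR) and Msln (0.92, adjusted p = 0.0472 by edgeR). Neither passed in the 8 libraries with low Xist, and the summed level of the list was 733 CPM in control 1 and 399 to 617 CPM in the other controls. In cKO pools it was 570 to 795 CPM in the 3 with high Xist and 441 to 502 CPM in the other 3, so this sum was higher with high Xist in both groups. Podxl, Aldh1a2, Upk3b and Lrrn4 were not called, with log2 fold changes of -0.13 to 0.24.

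Of 24 paralogs of the 9 factors, 16 passed the filter, and edgeR called Lhx1 alone in all 12 libraries, beside the 8.13% called among all genes (4.69 ± 1.95 and 8.60 ± 1.95 CPM, log2 fold change 0.85, adjusted p = 0.0418 by edgeR, 0.106 in the 8 libraries with low Xist and 0.0376 with the covariate). DESeq2 also called Gata5, which was lower (2.19 ± 0.89 and 1.14 ± 0.30 CPM, log2 fold change -0.89, adjusted p = 0.0304 by DESeq2 and 0.0637 by edgeR) and was named after its values were seen. Lhx1 is also a gene of mesonephric epithelium, of which 6 markers summed to 31.7 to 55.6 CPM in control and 41.0 to 69.2 CPM in cKO pools. Their part in this value was not tested. Cbx6 and Six5 were among the paralogs not called, with log2 fold changes of -0.04 and -0.18. Of the 16 paralogs, 11 had a positive and 5 a negative log2 fold change, with a median of 0.22, and of 0.37 in the 8 libraries with low Xist. Apart from Gata6os, the tested neighbours of the other 8 factors in the genome were not called in the edgeR fit on all 12 libraries. Emx2os was called lower in the 8 libraries with low Xist and with the covariate (-0.65, adjusted p = 0.00208 by edgeR). Nr6a1, 8831 bases from Nr5a1, was at 22.1 ± 5.22 and 38.8 ± 19.6 CPM (log2 fold change 0.79, adjusted p = 0.087 by edgeR).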

How the data were processed

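RNA of 12 pools of 3 E14.5 testes was sequenced by a stranded protocol. The submitters' processing notes name Trim Galore 0.6.7, STAR 2.5, featureCounts of Subread 1.5.0-p1 and mm10. The authors counted read pairs per RefSeq gene by strand and deposited raw counts for 24470 genes, without normalization.

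The test was edgeR's (version 4.0.16, in R 4.3.3). TMM factors scaled the libraries, genes were kept by filterByExpr (minimum count 10, minimum total 15), and groups were compared by the quasi-likelihood test (glmQLFit, glmQLFTest) with no covariate and Benjamini-Hochberg adjustment over 15572 genes at 0.05. The standard error is the log2 fold change divided by the square root of F. The prior count for log2 CPM was 2. DESeq2 1.42.0, limma-voom (limma 3.58.1), other scalings and filters, a replicate block, leaving out each library, and Xist class (over or under 100 CPM) were alternatives. Exon lengths were taken from GENCODE M21 (GRCm38) and promoter windows from RefSeq (GRCm38.p6), which were given for 3 of the 9 members and for Wt1os. No label says that pools of a group came from separate litters, so p-values measure the spread between these pools. On simulated 2-fold changes in cKO against control libraries (15572 genes), edgeR recovered 172 of 200 among 186 calls. Recovery of changes smaller than 2-fold, such as those of the 9 members, was not tested. The members and gene lists were chosen with earlier results of these data known.

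Genes named were the 9 members, Nr2f2, Xist, the nearest gene on each side of Wt1, the called genes of 7 lists with up to 4 uncalled by mean CPM, and the 3 genes most like each member. The genes within 1 Mb of Wt1, Nr6a1 and the ratios were added after values had been seen. Some genes that these criteria select are not reported here.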

Additional observations from a re-analysis of the deposited data

Results flagged for a closer look

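Among 26 groups of 6 pools examined for the 9 factors, their 3 opposite-strand partners and Them7, 6 held a pool far from the other 5 by Dixon's test, of which chance gives about 1 in 20. All 6 were control 1, the control library with high Xist. It was the highest control for Wt1 at 279.9 CPM (the next at 195), for Gata6 at 88.61 CPM (the next at 58.3), for Emx2 at 75.03 CPM (the next at 41.8), for Wt1os at 19.32 CPM (the next at 13.8), for Emx2os at 26.70 CPM (the next at 17.4) and for Gata6os at 6.872 CPM (the next at 4.28). No pool was found this way for Nr5a1, Gata4, Zfpm2, Lhx9, Six4 or Cbx2.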

How the results depend on the processing

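None of the 9 factors was called in the 12 libraries, and 1266 of all genes were. A single factor was called in 6 alternatives: Nr5a1 with RLE size factors (-0.31), upper-quartile size factors (-0.31), the stricter filter (-0.31) and the replicate block (-0.31, adjusted p = 0.0201), and Gata6 with library totals alone (0.45) and limma-voom (0.44). DESeq2 called 3, Wt1 (-0.41), Nr5a1 (-0.31) and Gata6 (0.43), and 1919 genes in all. Without the 4 high-Xist libraries 3 were called, Wt1 (-0.37), Gata6 (0.43) and Emx2 (-0.33), and likewise with the Xist covariate (-0.51, 0.31 and -0.41). Cbx2 turned to 0.0108 with library totals, 0.0229 without the 4 libraries and 0.00516 with the covariate. In the 12 fits with 1 library removed, the count of factors called ran from 0 to 3 and that of all genes from 819 (without cKO 4) to 3102 (without control 1). Log2 fold changes ran from -0.46 to -0.27 for Wt1 (called without control 1 or control 5), -0.37 to -0.28 for Nr5a1 (called without control 1, control 5 or cKO 2), 0.38 to 0.56 for Gata6 (called without control 1 or cKO 2), -0.27 to 0.0403 for Emx2 (turned without control 1), -0.0148 to 0.12 for Six4 (turned without control 1), -0.00664 to 0.096 for Gata4 (turned without control 5), -0.0832 to 0.0179 for Cbx2 (turned without control 3, control 4 or cKO 3), -0.12 to -0.07 for Zfpm2 and 0.03 to 0.08 for Lhx9. Wt1os also missed the threshold with limma-voom (0.50), no filter (0.55) and the replicate block (0.53), while Gata6os was called in every alternative run. The cause of these shifts was not tested. Same-numbered pools had correlations of -0.46 to 0.33 over the 2000 most variable genes, and no control correlated best with the cKO pool of its own number. The Xist class differed within some of these pairs, so the values do not settle whether the replicate numbers pair the samples.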
